A study of Mus musculus with 33 samples.

Results

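The platelet-derived growth factor (PDGF) family of the mouse was followed in ovary transcriptomes through its 4 ligand genes, Pdgfa, Pdgfb, Pdgfc and Pdgfd, and its 2 receptor genes, Pdgfra and Pdgfrb. The 6 genes were chosen by family membership, out of 54347 gene identifiers in the count table, and all 6 passed the filter on low counts in every fit. RNA from whole ovaries was sequenced in 33 libraries that form 9 groups in 3 experiments. Experiment 1 held 3 libraries each of ovaries labelled WT, Fshb(+/-) and Fshb(-/-), where Fshb encodes the subunit that gives follicle-stimulating hormone (FSH) its specificity. In experiment 2 there were 4 Fshb(-/-) libraries and 4 with the label Fshb(-/-) HFSHB, called the rescue here, so that all 8 share the Fshb(-/-) background. Experiment 3 held 4 libraries each with the genotype label WT at the estrous stages labelled DE, PE and E, and 4 with the stage label KO (anestrus), whose genotype label also reads WT. The labels give no age, no stage for experiments 1 and 2 and no promoter for the transgene, and they do not say whether each library came from a separate animal, so p-values measure the spread between these libraries.

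PDGF ligands are secreted dimers that bind and pair receptor tyrosine kinases on mesenchymal cells. PDGF-A, PDGF-B and PDGF-C bind PDGFR alpha, while PDGF-B and PDGF-D are the main ligands of PDGFR beta. PDGF-C and PDGF-D are secreted in a latent form and need proteolytic cleavage before they bind. In vessels, endothelial PDGF-B recruits pericytes that carry PDGFR beta, and in the ovary both receptors are known from stromal, thecal and perivascular cells.

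Pdgfra and Pdgfc moved together across the groups, so the 250 bases before their annotated starts are shown, each on the plus strand and 5′ to 3′, from RefSeq on GRCm38.p6, with every CG dinucleotide in capitals. The Pdgfra window is chr5:75152001-75152250 and the Pdgfc window chr3:81036166-81036415, and both lie outside the gene as the annotation of the counts draws it.
Pdgfra: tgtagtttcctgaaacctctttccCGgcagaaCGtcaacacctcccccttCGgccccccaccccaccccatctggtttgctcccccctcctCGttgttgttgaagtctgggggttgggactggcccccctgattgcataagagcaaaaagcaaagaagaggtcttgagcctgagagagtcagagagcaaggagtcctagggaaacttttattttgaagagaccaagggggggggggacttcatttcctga
Pdgfc: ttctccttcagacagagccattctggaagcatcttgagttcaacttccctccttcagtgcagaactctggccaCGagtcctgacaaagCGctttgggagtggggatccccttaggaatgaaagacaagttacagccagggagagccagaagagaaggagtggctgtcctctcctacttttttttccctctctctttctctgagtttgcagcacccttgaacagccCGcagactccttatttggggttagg
The Pdgfra window held 4 CG dinucleotides and 54.4% G or C, and the Pdgfc window 3 and 50.8%, beside medians of 6 and 52.4% over 32851 mouse promoter windows of the same length. Short motifs were searched on both strands, and neither window held any of them. The motif GGGCGG was in 32.7% of all windows. The motif CCAAT was in 33.8%. The motif TATAAA was in 12.4%. Windows were read for 4 of the 6 genes, 5 windows in all, and none for Pdgfb or Pdgfrb. Both Pdgfa windows were richer in CG, with 19 and 28, and held GGGCGG at 1 and 2 positions. Unlike the Pdgfra and Pdgfc windows, they lie inside the gene as the annotation of the counts draws it. The Pdgfd window had 3 CG and 1 TATAAA. A match describes letters, and no match says only that these letters are not in this window.

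Library totals ran from 13587139 to 16931584 counts in experiment 1, from 19633234 to 23700028 counts in experiment 2 and from 10085324 to 15925070 counts in experiment 3. Fshb, the targeted gene, was counted 1, 1 and 0 times in WT of experiment 1, 43 to 106 times in Fshb(+/-) and 68 to 82 times in Fshb(-/-), so the mutant libraries did not have fewer counts than WT. In experiment 2 it was counted 119 to 184 times in Fshb(-/-) and 221 to 431 times in the rescue, and in experiment 3 it was counted 90 to 114 times in KO (anestrus). Of the 12 stage libraries of experiment 3, all labelled WT, 9 had 26 to 198 Fshb counts, including all 4 labelled DE, and the other 3, E replicate 3 and PE replicates 1 and 2, had 0. The stage groups are therefore called by their labels, and the PDGF values are also given for those 3 libraries alone. Genes of oviduct epithelium (12 genes) summed to 3257 to 7518 CPM (counts-per-million units) in DE replicates 1, 2 and 4, E replicate 3 and all 4 PE libraries. They summed to 1456 CPM in Fshb(+/-) replicate 3. In experiment 2 they summed to 388 and 132 CPM in Fshb(-/-) replicates 3 and 4 and to 558 CPM in rescue replicate 2. The other libraries of the series held 6.39 to 56.2 CPM.

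In ovaries labelled Fshb(-/-), transcripts of the receptor gene Pdgfra and the ligand gene Pdgfc were higher and those of the receptor gene Pdgfrb lower than in WT. The same 3 genes passed the test in the opposite direction when the rescue was compared with Fshb(-/-), and when each of the stages was compared with KO (anestrus). Each of the 3 passed in 6 of the 10 comparisons made. Pdgfa passed in 3, Pdgfb in 1 and Pdgfd in 0. Changes are log2 fold changes with standard errors (SE), called at an adjusted p under 0.05 over all genes tested by edgeR's quasi-likelihood test, and levels are CPM scaled within each experiment, so that levels set across experiments come from separately scaled tables. In whole ovaries, fewer cells of a type and less RNA per cell cannot be told apart.

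Between the libraries labelled Fshb(-/-) and WT, 2 of the 6 genes were higher and 1 lower, beside 7.87% of all genes tested called in either direction. Between Fshb(-/-) and Fshb(+/-), 2 were higher and 2 lower, beside 17.0%. Between the rescue and Fshb(-/-), 1 was higher and 2 lower, beside 31.9%. Against KO (anestrus), 2 were higher and 2 lower at DE beside 25.1%, 2 higher and 3 lower at PE beside 33.8%, and 1 higher and 2 lower at E beside 18.0%. Between Fshb(+/-) and WT 0 of the 6 were called, beside 0.0871% of all genes (1783 at an unadjusted p under 0.05, and 362 genes called by DESeq2, which also called 0 of the 6). The smallest p there was that of Pdgfa, with a change of 0.60 ± 0.25 (95% interval 0.04 to 1.16, adjusted p = 0.46). The interval was -0.39 to 0.62 for Pdgfra, -0.43 to 0.41 for Pdgfc and -0.10 to 0.65 for Pdgfrb. The comparisons within experiment 1 share libraries, as do those with KO (anestrus), so they are not independent of each other. Values that do not overlap between groups of 3 or 4 libraries are common here. This held for 35.3% of all genes tested in Fshb(-/-) against WT, 37.7% in Fshb(-/-) against Fshb(+/-) and 34.3% in the rescue against Fshb(-/-). Against KO (anestrus) it held for 25.4% at DE, 41.5% at PE and 29.8% at E.

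**Figure D1:**
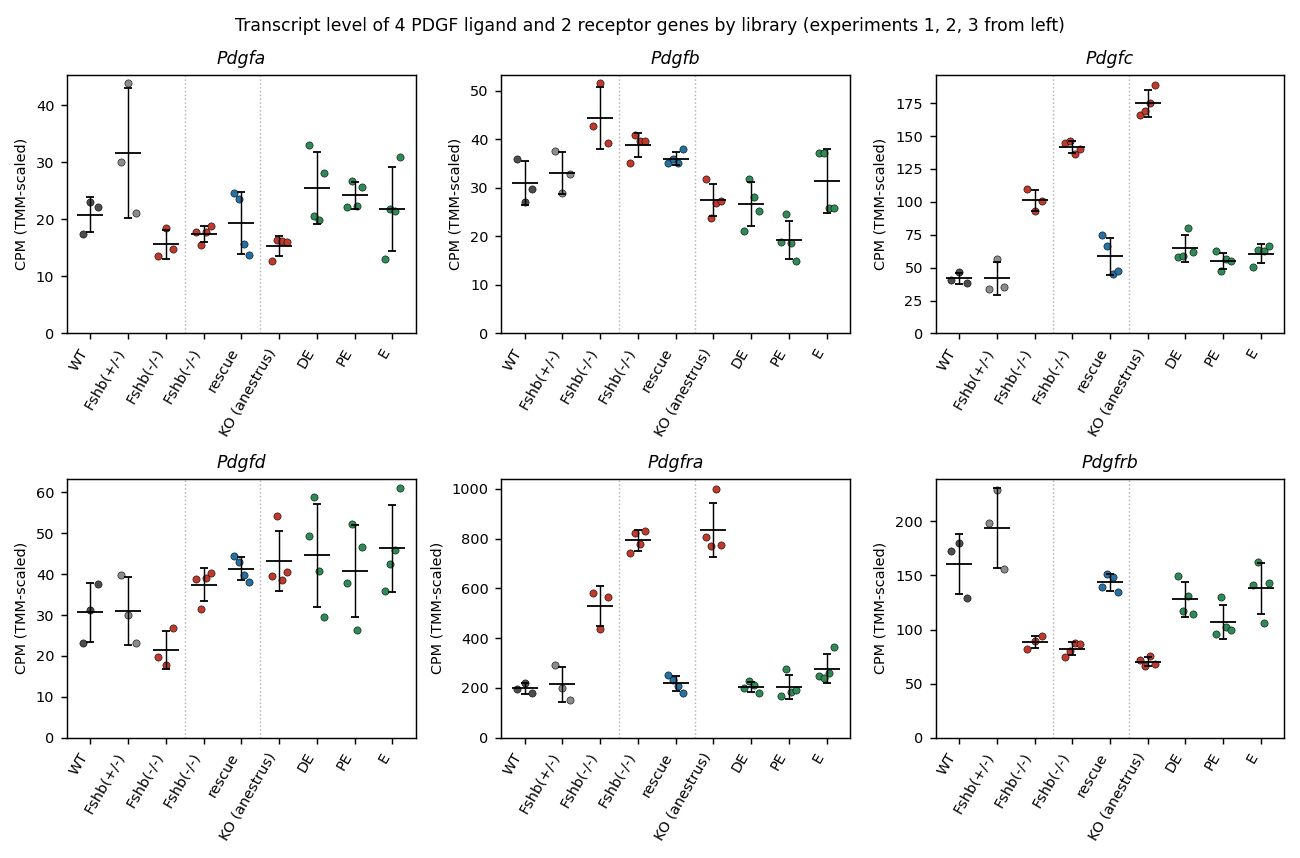
Transcript level of each PDGF gene by library, in CPM scaled within each experiment, with groups on the horizontal axis, points for libraries, and bars for the mean and standard deviation (SD) of 3 or 4 libraries. Pdgfc and Pdgfra are high and Pdgfrb is low in the 3 groups labelled Fshb(-/-) or KO (anestrus), while neighbouring groups overlap for Pdgfd.

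Pdgfra (ENSMUSG00000029231) lies at chr5:75152292-75198215 on the plus strand of GRCm38 and encodes PDGFR alpha, the receptor shared by PDGF-A, PDGF-B and PDGF-C. In experiment 1 it stood at 196, 221 and 178 CPM in the WT libraries, at 291, 200.3 and 151.4 CPM in the Fshb(+/-) libraries and at 582, 435 and 566 CPM in the Fshb(-/-) libraries. The Fshb(-/-) values lay above every value of the other groups, which overlapped each other. Relative to WT the level was 2.66-fold higher, a log2 change of 1.41 ± 0.23 (SE, adjusted p = 0.009), and relative to Fshb(+/-) the change was 1.30 ± 0.23 (adjusted p = 0.0064).

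In experiment 2, Pdgfra stood at 741, 823, 779 and 832 CPM in the Fshb(-/-) libraries and at 251.5, 232, 209.5 and 180.1 CPM in the rescue. The groups did not overlap. The fitted rescue level was 0.275 times that of the mutant, a log2 change of -1.86 ± 0.10 (adjusted p = 8.1e-06). Pdgfra ranked 20 by p among the 16871 genes tested there.

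In experiment 3, Pdgfra stood at 804, 770.4, 997 and 772.5 CPM in the KO (anestrus) libraries, with replicate 3 above the rest. The DE libraries held 199.5, 229, 211 and 178 CPM. The PE libraries held 166, 275, 185.5 and 192 CPM, and the E libraries 246, 241, 258 and 362.5 CPM. All 12 stage libraries lay below all 4 KO (anestrus) libraries. The log2 changes against KO (anestrus) were -2.03 ± 0.17 for DE (adjusted p = 5.7e-06), -2.03 ± 0.17 for PE (adjusted p = 4.9e-06) and -1.59 ± 0.17 for E (adjusted p = 3.7e-05).

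Pdgfrb encodes PDGFR beta, the receptor of pericytes and vascular smooth muscle precursors, and its transcript went the other way. In experiment 1 it stood at 173, 180.3 and 129 CPM in the WT libraries, at 198, 229 and 155.5 CPM in the Fshb(+/-) libraries and at 82.5, 89.6 and 93.7 CPM in the Fshb(-/-) libraries. The mutant values were the lowest 3 of the 9, and did not overlap with either group. The log2 change from WT was -0.86 ± 0.17 (adjusted p = 0.019) and that from Fshb(+/-) was -1.13 ± 0.17 (adjusted p = 0.0032). The call against WT was lost when any 1 of 5 libraries, all but WT replicate 3, was left out, with a change of -0.90 to -0.76 and an adjusted p of 0.06 to 0.083.

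In experiment 2, Pdgfrb stood at 74.6, 79.95, 87.3 and 86.7 CPM in the Fshb(-/-) libraries and at 139.5, 151, 149 and 135 CPM in the rescue. The groups did not overlap, and the rescue level was 1.75-fold higher, a log2 change of 0.80 ± 0.06 (adjusted p = 3.9e-05). In experiment 3 the KO (anestrus) libraries held 71.8, 65.9, 75.8 and 67.8 CPM, and the stage libraries 95.6 to 162 CPM. The stage libraries were all higher, by a log2 change of 0.86 ± 0.13 for DE (adjusted p = 0.00061), 0.61 ± 0.13 for PE (adjusted p = 0.0041) and 0.97 ± 0.13 for E (adjusted p = 0.00022).

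The ratio of the receptor transcripts within a library does not depend on the scaling between libraries. Counts per kilobase of annotated exon gave 2.65 to 3.86 Pdgfra transcripts per Pdgfrb transcript in the Fshb(-/-) libraries of experiment 1 and 0.62 to 0.756 in WT. In experiment 2 the ratio was 4.88 to 5.62 in Fshb(-/-) and 0.729 to 0.986 in the rescue, and in experiment 3 it was 6.13 to 7.19 in KO (anestrus) and 0.731 to 1.39 in the stage libraries. The absolute ratio depends on the exon lengths used, 10.024 kb for Pdgfra and 5.478 kb for Pdgfrb, whereas differences between groups do not.

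The mean log2 ratio was 2.25 higher in Fshb(-/-) than in WT (p = 0.1, the smallest that an exact two-sided permutation test of 3 against 3 libraries allows, adjusted p = 0.17 over 10 comparisons). The difference was -2.68 in the rescue minus Fshb(-/-) and -2.89, -2.65 and -2.57 in DE, PE and E minus KO (anestrus), each with an exact permutation p = 0.029, the smallest possible for 4 against 4 libraries, and an adjusted p of 0.071. The adjusted values therefore lie above 0.05, although the ranges of the groups do not overlap in these comparisons.

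**Figure D2:**
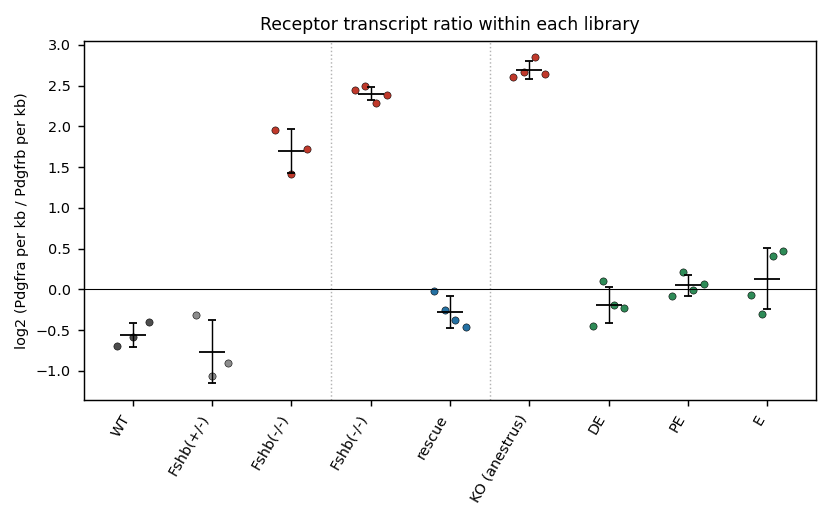
Log2 ratio of Pdgfra to Pdgfrb counts per kilobase of exon within each library, with points for libraries and bars for the mean and SD of 3 or 4 libraries. The groups labelled Fshb(-/-) or KO (anestrus) average 1.69, 2.40 and 2.69, and the other groups lie between -0.76 and 0.13.

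Among the ligands, Pdgfc (ENSMUSG00000028019, chr3:81036416-81214040 on the plus strand), whose product acts mainly on PDGFR alpha, changed with Pdgfra. In experiment 1 it stood at 40.7, 46.5 and 38.6 CPM in the WT libraries, at 34.1, 56.2 and 34.9 CPM in the Fshb(+/-) libraries and at 109, 92.8 and 101 CPM in the Fshb(-/-) libraries. The mutant values lay above all others. The log2 change was 1.27 ± 0.19 from WT (2.41-fold, adjusted p = 0.0061) and 1.28 ± 0.19 from Fshb(+/-) (adjusted p = 0.003).

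In experiment 2, Pdgfc stood at 145.1, 146, 136 and 140.5 CPM in the Fshb(-/-) libraries and at 74.6, 66.5, 45.2 and 47.8 CPM in the rescue. The rescue libraries spread more but stayed below the mutant, with a log2 change of -1.28 ± 0.16 (adjusted p = 0.00071). In experiment 3 the KO (anestrus) libraries held 166, 169, 175 and 189 CPM and the 12 stage libraries 47.5 to 80.1 CPM. The log2 change was -1.43 ± 0.12 for DE (adjusted p = 4.6e-06), -1.66 ± 0.12 for PE (adjusted p = 1.1e-06) and -1.53 ± 0.12 for E (adjusted p = 2.6e-06), and Pdgfc ranked 16, 10 and 13 by p among 16944 genes.

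Pdgfa (ENSMUSG00000025856, chr5:138976014-138997370 on the minus strand), the ligand of PDGFR alpha alone, was less abundant and less regular. It stood at 17.4, 23.1 and 22.1 CPM in WT, at 30.1, 43.8 and 21.1 CPM in Fshb(+/-) and at 13.6, 18.4 and 14.8 CPM in Fshb(-/-). The lowest WT library lay within the mutant range, and the change from WT was -0.42 ± 0.25 (adjusted p = 0.34). Against Fshb(+/-) it fell by 1.02 ± 0.25 on the log2 scale (adjusted p = 0.026), a call lost without Fshb(+/-) replicate 2, Fshb(-/-) replicate 1 or Fshb(-/-) replicate 3.

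The rescue and Fshb(-/-) libraries held 13.8 to 24.6 and 15.4 to 18.8 CPM of Pdgfa and overlapped. In experiment 3 the KO (anestrus) libraries held 12.8 to 16.3 CPM, below all DE libraries (20.0 to 33.1 CPM) and all PE libraries (22.1 to 26.65 CPM). Pdgfa rose by 0.73 ± 0.22 at DE (adjusted p = 0.027) and 0.66 ± 0.22 at PE (adjusted p = 0.032), and both calls were lost in 6 of 15 other settings; at E the change was 0.51 ± 0.22 (adjusted p = 0.12), and 0.74 (adjusted p = 0.02) without E replicate 1. The antisense gene 6330403L08Rik shares 813 exonic bases with Pdgfa and held up to 52.7% as many counts, and the strand setting of the counting is not given, so Pdgfa values are uncertain.

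Pdgfb (ENSMUSG00000000489, chr15:79995874-80014977 on the minus strand), the endothelial ligand of both receptors, stood at 36.0, 27.1 and 29.7 CPM in WT and at 42.7, 51.5 and 39.1 CPM in Fshb(-/-) of experiment 1. The groups did not overlap, as for 35.3% of all genes tested, but the change of 0.52 ± 0.15 did not pass (adjusted p = 0.072). DESeq2 called it with an adjusted p of 0.029. In experiment 2 the Fshb(-/-) libraries held 35.1 to 40.9 CPM and the rescue 35.0 to 38.0 CPM, a change of -0.11 ± 0.06 (adjusted p = 0.21). At PE, Pdgfb fell by 0.51 ± 0.18 against KO (anestrus) (adjusted p = 0.038), with values of 15.0 to 24.6 and 23.9 to 31.9 CPM that overlapped, and the call was lost in 8 of 15 other settings.

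Pdgfd (ENSMUSG00000032006, chr9:6168584-6378850 on the plus strand), the ligand of PDGFR beta that needs cleavage, was called in 0 of the 10 comparisons by edgeR and by DESeq2, with 0 at an unadjusted p under 0.05. It stood at 23.1, 31.2 and 37.6 CPM in WT and at 19.8, 17.8 and 26.8 CPM in Fshb(-/-), with a change of -0.51 ± 0.25 (adjusted p = 0.23; 95% interval -1.07 to 0.04). In experiment 2 the change from Fshb(-/-) to the rescue was 0.14 ± 0.09 (95% interval -0.05 to 0.34). Against KO (anestrus) the changes at DE, PE and E were 0.04, -0.08 and 0.10, with intervals reaching from -0.59 to 0.60.

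**Figure D3:**
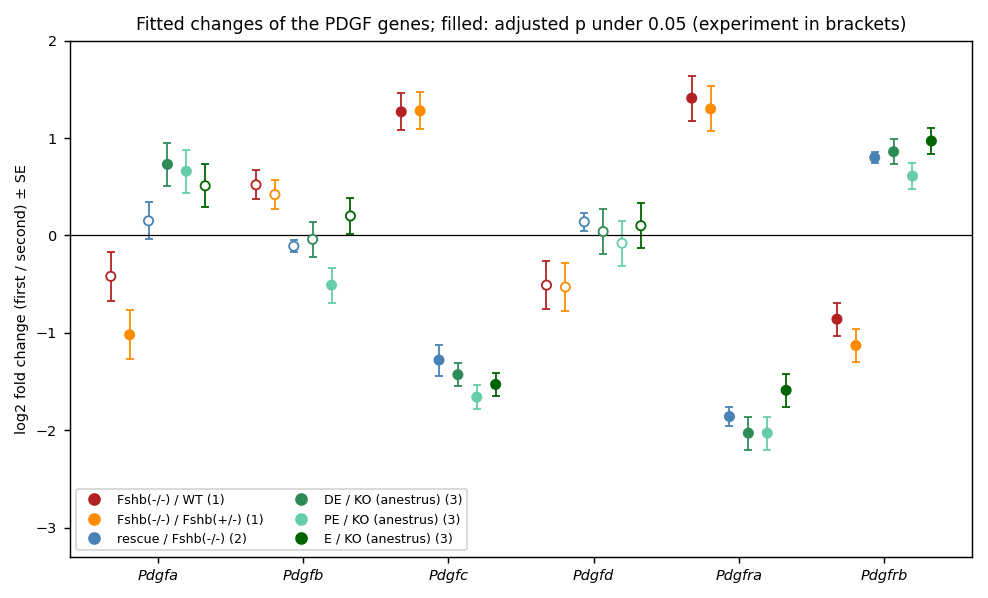
Fitted log2 fold changes of the 6 PDGF genes, with bars for 1 SE and filled points for an adjusted p under 0.05, for 6 comparisons: Fshb(-/-) with WT and with Fshb(+/-), the rescue with Fshb(-/-), and DE, PE and E each with KO (anestrus). Pdgfc and Pdgfra are positive in the first pair of comparisons and negative in the other 4, and Pdgfrb is the reverse.

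Per kilobase of exon, Pdgfc made up 46.9% ± 3.73 (SD, n = 3) of the 4 ligands' summed level in Fshb(-/-) of experiment 1, 51.0% ± 2.15 (n = 4) in that of experiment 2 and 57.7% ± 2.62 (n = 4) in KO (anestrus). In the other groups its mean share was 22.7% to 30.9%. The ligands' summed level was 42.4 ± 0.18 CPM per kb in Fshb(-/-) of experiment 1 and 32.1 ± 2.22 in WT, 54.7 ± 1.04 in Fshb(-/-) of experiment 2 and 39.5 ± 5.26 in the rescue, and 59.6 ± 2.31 in KO (anestrus). In WT, the rescue and the DE, PE and E groups Pdgfd had the largest mean share, 30.1% to 35.4%. By this measure Pdgfra ranked first and Pdgfc second of the 6 genes in the groups labelled Fshb(-/-) or KO (anestrus).

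The groups order differently by gene. For Pdgfc the 3 groups labelled Fshb(-/-) or KO (anestrus) did not overlap each other or the group below them. For Pdgfra KO (anestrus) overlapped Fshb(-/-) of experiment 2, and those 2 and Fshb(-/-) of experiment 1 were clear of each lower group. For Pdgfrb the 3 formed the lowest overlapping set, below the PE group, whose lowest library held 95.6 CPM against the highest of 93.7 CPM. Neighbours in the order of Pdgfa, Pdgfb and Pdgfd all overlapped.

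Between stages, 0 of the 6 genes passed in PE against DE, beside 0% of all genes tested (407 at an unadjusted p under 0.05, and 0 by DESeq2). In E against PE 0 passed, beside 0% of all genes (3170 unadjusted, 363 by DESeq2), although Pdgfb was higher in all 4 E libraries (25.7 to 37.3 CPM) than in the PE libraries (15.0 to 24.6 CPM), a change of 0.71 ± 0.18 (adjusted p = 0.19, and 0.021 by DESeq2). In DE against E 0 passed, beside 0% of all genes (1796 unadjusted, 10 by DESeq2), although Pdgfra in all 4 E libraries lay above DE, a change of -0.44 ± 0.16 (adjusted p = 0.45). Of all genes tested, 8.88% did not overlap between E and PE and 2.94% between DE and E. Leaving out DE replicate 3 and E replicate 3 gave 0.79 (adjusted p = 0.0095) for Pdgfb and 0.47 (adjusted p = 0.016) for Pdgfrb in E against PE, and E then held only libraries low in oviduct genes and PE only libraries rich in them, so stage and oviduct content cannot be told apart. Without E replicate 3 alone, Pdgfb (0.79, adjusted p = 0.014) and Pdgfrb (0.47, adjusted p = 0.021) were also called, and without PE replicate 2 Pdgfb was (0.85, adjusted p = 0.032).

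The comparisons with KO (anestrus) were recomputed in the libraries low in oviduct genes. At E, with 3 libraries, Pdgfc (-1.51), Pdgfra (-1.53) and Pdgfrb (1.11) were called. Of DE only replicate 3 was left, with values of -1.10, -1.96 and 0.93 for these genes and 0.41 for Pdgfa. PE could not be recomputed. All 4 PE libraries held 3257 to 5834 CPM of oviduct genes, beside 9.06 to 52.0 CPM in KO (anestrus). In PE against KO (anestrus), stage and oviduct content therefore cannot be told apart. In the PE libraries with 0 counts of Fshb, replicates 1 and 2, Pdgfc (-1.67), Pdgfra (-1.92), Pdgfrb (0.69) and Pdgfa (0.67) were called, and the Pdgfb call was lost (-0.34, adjusted p = 0.13). Of E only replicate 3 had 0 counts of Fshb, with values of -1.47 for Pdgfc, -1.68 for Pdgfra and 0.61 for Pdgfrb. In both fits with 1 library in an arm, the spread comes from the other groups and the lone library is assumed to vary like them, so these values support no call. No DE library had fewer than 10 Fshb counts.

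The changes made by the transgene and by the WT genotype were compared in 1 fit over experiments 1 and 2. For none of the 6 genes was a difference called between the rescue minus Fshb(-/-) change and the WT minus Fshb(-/-) change. This was beside 0.153% of all genes tested (1213 at an unadjusted p under 0.05, among them Pdgfb). The intervals are wide, so the lack of a call does not show that the changes are equal. The differences were -0.46 for Pdgfra (95% interval -1.0 to 0.08), -0.02 for Pdgfc (-0.56 to 0.53), -0.06 for Pdgfrb (-0.44 to 0.32) and 0.41 for Pdgfb (0.06 to 0.75, adjusted p = 0.66). They were -0.27 for Pdgfa (-0.98 to 0.43) and -0.38 for Pdgfd (-0.93 to 0.18). An effect of the experiment that shifts all its groups alike on the log2 scale cancels in this comparison. One that alters the change itself cannot be told apart from the difference between transgene and WT.

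Across the 33 libraries, each taken as its deviation from the mean of its experiment on a log2 scale, Pdgfra and Pdgfc had a Pearson correlation of 0.92 and Pdgfra and Pdgfrb of -0.78. These follow the group means, since within groups the same pairs gave 0.14 and 0.45. The points share libraries and scaling. Over 11973 genes, those closest to Pdgfra were Actn3 (0.97), Daam2 (0.97) and Nalcn (0.96), and those closest to Pdgfc were Nalcn, Wipf3 and Rbbp7 (0.97 each). Those closest to Pdgfrb were Clstn3 (0.95), Cemip (0.95) and Mbp (0.94).

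**Figure D4:**
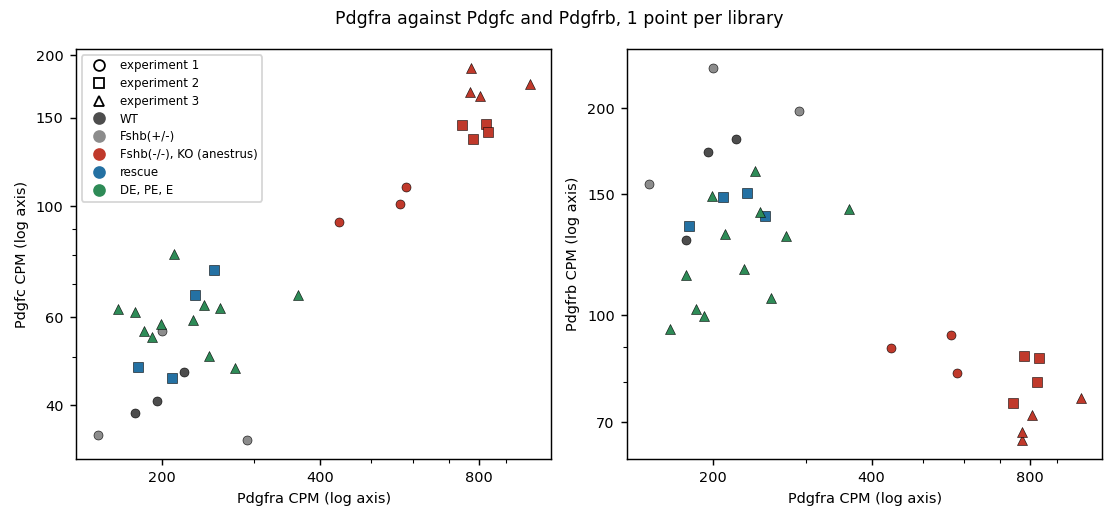
Pdgfra level against Pdgfc level and against Pdgfrb level, in CPM on log axes, with a point for each of the 33 libraries, coloured by group and shaped by experiment. The Fshb(-/-) and KO (anestrus) libraries form the upper right cloud on the left and the lower right cloud on the right.

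Other genes of the pathway are given as counts called, beside the share of all genes called in the same comparison: 7.87% in Fshb(-/-) against WT, 31.9% in the rescue against Fshb(-/-), and 25.1%, 33.8% and 18.0% in DE, PE and E against KO (anestrus). Of 15 genes for ligand processing and binding, 1 was higher in Fshb(-/-) than in WT, Pdgfrl, which encodes a PDGF receptor-like protein (1.38 ± 0.31, adjusted p = 0.031). In the rescue 4 were higher and 5 lower, among them Plau, which encodes urokinase, an activator of latent PDGF-D (-1.0 ± 0.10, adjusted p = 0.00022), Pcsk6, a proprotein convertase (-0.92 ± 0.10, adjusted p = 0.00021), and Plaur, the urokinase receptor (1.64 ± 0.23, adjusted p = 0.00096). At DE, PE and E, 3, 3 and 2 were higher and 4, 4 and 3 lower. The list's median change was 0.08 in Fshb(-/-) against WT beside -0.01 over all genes, and -0.06 in the rescue beside 0.

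Of the 7 class III receptor relatives, the receptors and ligands of the KIT, CSF1 and FLT3 systems, 0 were called in Fshb(-/-) against WT (Csf1, the macrophage growth factor, had 0.52 ± 0.15 with an adjusted p of 0.065). In the rescue 1 was higher and 3 were lower. Kit, the receptor of stem cell factor, changed by -1.29 ± 0.13 (adjusted p = 0.00022), Kitl, its ligand, by -0.46 ± 0.06 (adjusted p = 0.00059), Csf1 by -0.85 ± 0.13 (adjusted p = 0.0017) and Il34 by 0.80 ± 0.15 (adjusted p = 0.0045). Against KO (anestrus), 0 of 7 were higher and 4 lower at DE, 1 higher and 3 lower in PE, and 1 higher and 4 lower in E. The one higher in PE was Il34 (1.0 ± 0.33, adjusted p = 0.033).

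Of 38 receptor signalling genes, 1 rose and 2 fell in Fshb(-/-) against WT, a share near the 7.87% of all genes: the kinase gene Map2k1 (0.56 ± 0.10, adjusted p = 0.016), Prkca (-0.71 ± 0.16, adjusted p = 0.032) and Stat5b (-0.60 ± 0.16, adjusted p = 0.049). In the rescue 12 rose and 4 fell, beside 31.9% of all genes, with Map2k1 at -0.38 ± 0.06 (adjusted p = 0.0014). Against KO (anestrus), 5 rose and 6 fell in DE, 3 rose and 13 fell in PE, and 3 rose and 5 fell in E. The list's median changes lay between -0.14 and 0.03 in these comparisons.

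Of 21 genes that attenuate receptor signals, 2 rose and 0 fell in Fshb(-/-) against WT, a share near the 7.87% of all genes: Spry4 (0.94 ± 0.19, adjusted p = 0.019) and Errfi1 (1.17 ± 0.27, adjusted p = 0.038), which encode inhibitors of receptor tyrosine kinase signalling. In the rescue 1 rose and 5 fell, a share near the 31.9% of all genes, including Spry4 (-0.84 ± 0.17, adjusted p = 0.0062) and Errfi1 (-0.90 ± 0.19, adjusted p = 0.0098). Against KO (anestrus), 3 rose and 2 fell at DE, 2 rose and 5 fell at PE, and 0 rose and 3 fell at E. Spry2, of the same list, went the other way from Spry4. It changed by -0.60 ± 0.17 in Fshb(-/-) against Fshb(+/-) (adjusted p = 0.045) and by 0.49 ± 0.13 in DE against KO (anestrus) (adjusted p = 0.016). Of 18 immediate early genes tested, 1 fell in Fshb(-/-), Fosl2 (-1.35 ± 0.28, adjusted p = 0.026), and in the rescue 2 rose and 1 fell, including Fosl2 (1.01 ± 0.09, adjusted p = 6.7e-05). The lists were drawn up with earlier results of these data known.

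The receptor results came with changes in markers of other cells. All counts of markers called are beside 7.87% of all genes in Fshb(-/-) against WT and 31.9% in the rescue against Fshb(-/-). The summed level of 12 pericyte markers, none at 0, ran from 291 to 354 CPM in Fshb(-/-) and from 450 to 510 CPM in WT of experiment 1, where 0 rose and 3 fell, including Notch3 (-1.28 ± 0.15, adjusted p = 0.0024) and Rgs5 (-0.92 ± 0.17, adjusted p = 0.014). In experiment 2 it ran from 281 to 308 CPM in Fshb(-/-) and from 416 to 481 CPM in the rescue, where 6 rose. In experiment 3 it ran from 249 to 397 CPM in KO (anestrus) and from 462 to 1201 CPM in the stage libraries. Within DE it was 462 CPM in replicate 3, which was low in oviduct genes, and 797 to 1201 CPM in the others. Within E it was 795 CPM in replicate 3, which was rich in oviduct genes, and 471 to 598 CPM in the others. The part of oviduct content in these sums was not tested. Of 14 endothelial markers, 1 rose and 8 fell in Fshb(-/-) against WT, with sums of 547 to 672 and 808 to 916 CPM, and 12 rose and 1 fell in the rescue.

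Pdgfrb was 27.3% ± 3.19 (SD, n = 3) of the pericyte sum in Fshb(-/-) and 34.5% ± 8.08 (n = 3) in WT of experiment 1, and 27.7% ± 1.91 (n = 4) and 32.9% ± 2.0 (n = 4) in Fshb(-/-) and the rescue of experiment 2. In experiment 3 the mean share was 21.9% ± 5.99 (n = 4) in KO (anestrus) and 23.6% ± 7.29 (n = 4) in E. It was lower in DE, at 16.4% ± 8.28 (n = 4), and in PE, at 14.1% ± 1.96 (n = 4). The range in DE, 9.53% to 28.4%, overlapped that in KO (anestrus), 16.7% to 28.9%, while PE held 11.8% to 16.5%. All 4 PE libraries and DE replicates 1, 2 and 4 were rich in oviduct genes, so stage and oviduct content cannot be told apart in these shares. The part of pericyte content in the Pdgfrb result was not tested.

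Of 12 fibroblast and stroma markers, 1 rose and 2 fell in Fshb(-/-) against WT, and the sums of 3662 to 4299 and 3854 to 4213 CPM overlapped. Pdgfra was 13.1% ± 2.89 (n = 3) of that sum in Fshb(-/-) and 5.0% ± 0.739 (n = 3) in WT, and 23.1% ± 2.57 (n = 4) and 6.07% ± 0.362 (n = 4) in Fshb(-/-) and the rescue. In experiment 3 it was 17.0% ± 4.55 (n = 4) in KO (anestrus) and 2.91%, 2.76% and 4.99% on average in DE, PE and E. Of 12 theca and interstitial markers, 2 rose and 2 fell in Fshb(-/-) against WT, beside 7.87% of all genes. In the rescue 3 rose and 6 fell, beside 31.9%.

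Of 12 luteal markers 3 fell in Fshb(-/-) against WT, beside 7.87% of all genes, and 11 of the 11 tested rose in the rescue, beside 31.9%. Of 14 granulosa markers 3 rose and 4 fell in Fshb(-/-), and 7 rose and 4 fell in the rescue. Of 14 oocyte markers 11 rose in Fshb(-/-) against WT, with sums of 872 to 1138 and 443 to 558 CPM, and 14 fell in the rescue. Pdgfc was 10.2% ± 2.02 (n = 3) of the oocyte sum in Fshb(-/-) and 8.42% ± 0.73 (n = 3) in WT, and 13.2% ± 1.97 (n = 4) and 11.2% ± 1.95 (n = 4) in Fshb(-/-) and the rescue. In experiment 3 it was 13.8% ± 1.01 (n = 4) in KO (anestrus), 20.2% ± 9.55 (n = 4) in DE, 15.7% ± 3.32 (n = 4) in PE and 10% ± 2.53 (n = 4) in E, so the share was higher than KO (anestrus) in DE and PE and lower in E. The part of oocyte content in the Pdgfc result was not tested.

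**Figure D5:**
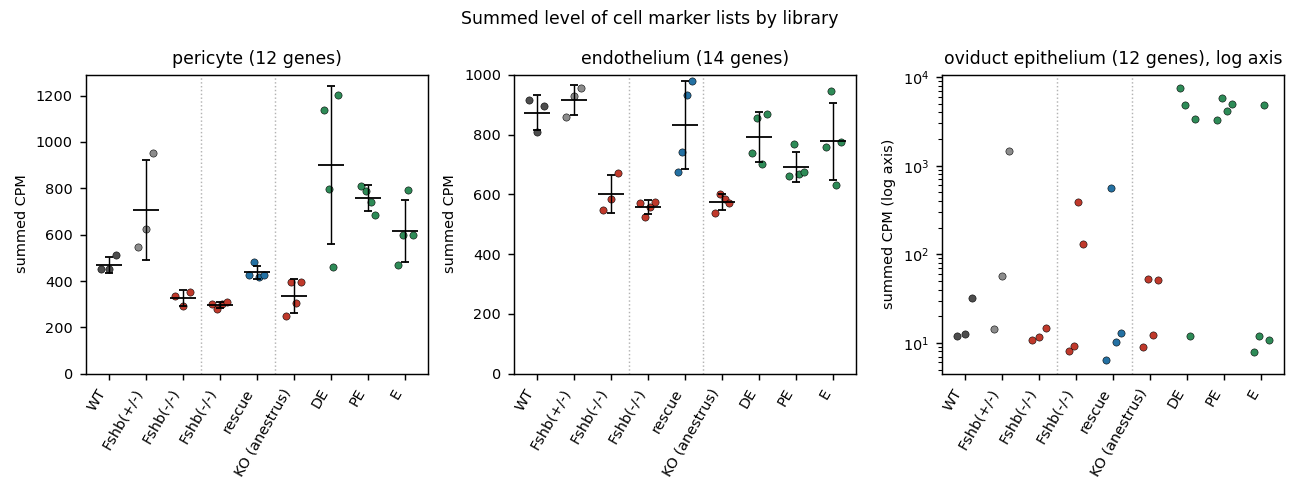
Summed CPM of pericyte, endothelial and oviduct epithelium marker lists by library and group, the last on a log axis, with bars for the mean and SD in the first 2 panels. Pericyte and endothelial sums are low in the groups labelled Fshb(-/-) or KO (anestrus), and the oviduct sum is high in all 4 PE libraries, in 3 of 4 DE libraries and in 1 library each of E and Fshb(+/-). It is 132 to 558 CPM in Fshb(-/-) replicates 3 and 4 and rescue replicate 2 of experiment 2.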

How the data were processed

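The values are estimated counts per gene, which the authors deposited for 33 libraries of poly-A RNA from mouse ovaries; the submitters' processing notes name Salmon, DESeq2 and the build GRCm38, and versions and strand setting were not given in the sources used here. Of the 54347 identifiers, 54094 matched GENCODE gene identifiers without their version, and the 253 others held 0.0055% of the counts. Counts were rounded and fitted per experiment in edgeR 4.0.16 (R 4.3.3; filterByExpr, TMM, robust quasi-likelihood), with Benjamini-Hochberg adjustment over all genes and a threshold of 0.05. The receptor ratio was tested by exact permutation of libraries. Fits were tested on simulated data. Alternatives were DESeq2 1.42.0, other scaling, no filter, a replicate block, subsets of groups and leaving out libraries; 3 alternatives, on oviduct genes and on Fshb counts, were added after seeing the data. Replicate libraries differed beyond counting noise, and each counted as 1 sample. Named genes are the 6 PDGF genes, up to 4 genes with the smallest p per pathway list, up to 3 per marker list, and the 3 nearest genes per member. Members and lists were chosen with earlier results of these data known.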

Additional observations from a re-analysis of the deposited data

Results flagged for a closer look

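Within groups of 4 libraries, single libraries stood apart from the rest in 6 of 42 sets of values screened (each of the 6 genes and the receptor ratio in each group of 4), where chance alone flags about 1 in 20. Pdgfa was 12.8 CPM in KO (anestrus) replicate 1 and 16.01 to 16.3 CPM in the other libraries of that group. Pdgfc was 80.1 CPM in DE replicate 3, against 58.1 to 61.5 CPM. Pdgfd was 31.5 CPM in Fshb(-/-) replicate 2 of experiment 2, against 38.9 to 40.2 CPM. It was 54.1 CPM in KO (anestrus) replicate 2, against 38.7 to 40.5 CPM. Pdgfra was 362.5 CPM in E replicate 4, against 241 to 258 CPM, and 997 CPM in KO (anestrus) replicate 3, against 770.4 to 804 CPM.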

How the results depend on the processing

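Over 942 values of the 6 genes under the alternatives run, 906 kept their side of the threshold, 28 lost a call, 8 gained one and 0 called values reversed; the calls of Pdgfc and Pdgfra held in all of them, though 2 of these fits have an arm of 1 library and support no call. Counts of genes called moved more. DESeq2 called 2357 in Fshb(-/-) against WT, 362 in Fshb(+/-) against WT, 363 in E against PE and 10 in DE against E. Without DE replicate 3 and E replicate 3 the counts were 2656 in E against PE and 2750 in DE against E. Libraries low in oviduct genes gave 902 at DE and 4947 at E against KO (anestrus), those rich in them gave 8 in E against PE and 5 in DE against E, and stage libraries without Fshb counts gave 34 in E against PE. Leaving out 1 library gave 456 to 1031 in Fshb(-/-) against WT, 9 to 14 in Fshb(+/-) against WT, 1362 to 2581 in Fshb(-/-) against Fshb(+/-), 2422 to 5787 in DE and 1920 to 2779 in E against KO (anestrus), 0 to 1847 in E against PE, 0 to 1039 in DE against E, and 18 to 33 in the rescue and WT difference. The cause of these moves was not tested. The count at DE in libraries low in oviduct genes has DE replicate 3 as its only DE library. The counts in libraries rich in oviduct genes, and in stage libraries without Fshb counts, come from fits whose only E library was replicate 3. Counts of genes from fits with 1 library in an arm support no call.

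Same-numbered libraries did not deviate together (correlations of -0.75 to 0.28). Oviduct content also differed between libraries of a group, so these correlations cannot show whether the samples were paired. With a replicate block, 7 genes were called in Fshb(+/-) against WT in place of 15, and 0 of 60 values of the 6 genes changed their call.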
